A study of Mus musculus with 8 samples.

Results

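The genes of the amino acid response, together with the cytosolic aminoacyl-tRNA synthetases, were described in mouse embryonic stem cell (ESC) lines that carry none, 1 or both copies of Zfp281, which encodes a zinc finger transcription factor that binds Nanog. The set held 45 genes listed by name, with no measured value in the rule. They are 20 synthetase genes, 6 transcription factors of the response, 5 of its effectors, 5 enzymes of serine and one-carbon metabolism, 5 other enzymes of amino acid metabolism and 4 subunits of amino acid transporters. Of the 45 genes, 43 were measured among 18193 genes on the array (Mars under the symbol Mars1), and 36 were called present in every line of at least 1 genotype. Dars and Pycr1 were not analysed here because no probe set carried their symbol alone.

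The arrays held 3 Zfp281 null ESC lines (lines 7, 3.34 and 3.38), 2 heterozygous lines (lines 5 and 3.1) and 3 wild-type lines (lines 3, 3.2 and 3.3), with 1 array for each line. In the null allele a neomycin resistance cassette flanked by loxP sites took the place of both exons. The cassette is removed in some lines, and which of these 8 lines keep it is not given in the labels. All lines grew out of blastocysts from crosses of heterozygous mice and were kept untreated on mouse embryonic fibroblast feeders in medium with serum, LIF and added non-essential amino acids. Zfp281 mRNA had a log2 value of 3.64, 5.06 and 5.23 in null lines 7, 3.34 and 3.38, with heterozygous lines 5 and 3.1 at 6.69 and 6.97, against 6.88, 7.93 and 6.72 in wild-type lines 3, 3.2 and 3.3. All null lines were below all others, but Zfp281 was still called present in 2 of the 3 null lines on this probe set and in all 3 on at least 1 of its 2 probe sets. Where the probes lie relative to the deleted exons was not analysed. Of 10 ESC markers, 9 were called present in every line, and their mean log2 value lay between 9.13 and 9.35 in null lines, between 8.68 and 8.94 in heterozygous lines and between 8.30 and 8.74 in wild-type lines. Of 17 fibroblast markers measured, 10 to 13 were called present in null lines, 12 to 16 in heterozygous lines and 9 to 15 in wild-type lines, with a mean log2 value of 6.03 to 6.10 in null, 6.32 to 6.72 in heterozygous and 6.09 to 6.65 in wild-type lines. The part of feeder cells in the results was not tested. In a pool of cells, fewer cells of a type and less RNA per cell cannot be told apart.

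A shortage of amino acids leaves tRNAs uncharged, and the kinase Gcn2 (Eif2ak4) then phosphorylates the initiation factor eIF2. General translation drops while translation of Atf4 mRNA rises, and Atf4 protein with its C/EBP partners switches on genes for amino acid synthesis, import and tRNA charging. Atf4 protein is set largely by translation, so its mRNA level is an incomplete measure of the response. The synthetases join amino acids to their tRNAs, and 7 of those measured here sit in the multisynthetase complex of mammalian cells.

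Atf4 acts through C/EBP-ATF response elements, composite sites written TGATGNAAN, where N is any base. Promoter windows of 300 bases, 250 before and 50 after the RefSeq gene start (build GRCm38.p6), were at hand for 36 of the 45 genes. Both strands were searched for this motif alone, and 14 of the 36 windows (38.9%) held the element, against 1299 of 32851 windows of the whole table (3.95%). Of the 14 genes, 13 were measured, and 10 are shown because they include both members that were higher in null ESCs (Got1, Tars, Yars) or past 2-fold without passing the test (Nupr1, Gars) and well-known Atf4 targets that did not pass it. Capitals mark the element, each sequence reads along the strand that carries it, and the distance runs from the middle of the element to the gene start.
Got1, chr19:43524690-43524718, 99 bases upstream: gaggcttgtaTGATGCAACcaatgcaatg
Tars, chr15:11399656-11399684, 12 bases upstream: gctaaccagcTGATGCAACgggactcctg
Yars, chr4:129189896-129189924, 7 bases downstream: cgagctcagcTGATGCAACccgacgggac
Nupr1, chr7:126625563-126625591, 107 bases upstream: aagccctgtcTGATGCAATctggcccttt
Gars, chr6:55037960-55037988, 27 bases upstream: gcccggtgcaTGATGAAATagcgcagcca
Chac1, chr2:119351038-119351066, 190 bases upstream: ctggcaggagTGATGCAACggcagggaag
Asns, chr6:7693214-7693242, 19 bases upstream: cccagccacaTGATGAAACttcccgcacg
Trib3, chr2:152344029-152344057, 17 bases downstream: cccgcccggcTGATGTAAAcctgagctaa
Iars, chr13:49682126-49682154, 10 bases downstream: cgtctggaggTGATGCAATactgacagtg
Atf3, chr1:191183426-191183454, 107 bases upstream: gcggacttggTGATGCAAGtgcgagaagg
A match is a string of letters and not a measured site.

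In null against wild-type ESCs, 7 of the 43 measured members rose at an adjusted p under 0.05 from limma, and none fell, with 22 members higher and 1 lower at an unadjusted p under 0.05. Over all 18193 genes 0.693% rose and 0.44% fell at the adjusted threshold. At the unadjusted one 8.67% were higher and 1402 genes were lower. The 7 were the synthetase genes Cars, Lars, Mars1, Sars, Tars and Yars and the aspartate aminotransferase gene Got1. The median log2 fold change was 0.52 over the members, against −0.01 over all genes. Of the members 34 had the higher mean in null and 9 in wild-type ESCs, against 8521 and 9672 of all 18193 genes. Past 2-fold, 10 members were higher and none lower in null ESCs, against 1.37% of all genes that were higher. All 3 null lines lay above all 3 wild-type lines for 22 members, which 11.1% of all genes did. They lay above all 5 other lines, heterozygous lines included, for 16 members, which 6.96% of all genes did, and below all 5 for 1 member, against 5.67% of all genes. Among genes called present in every line of at least 1 genotype, 11 of 36 members passed, Gars, Kars, Atf5 and Psph in addition, against 3.76% of such genes that rose, and 9 were past 2-fold higher, against 3.11%. Yars and Atf5 were kept in that comparison only through the null lines. Without null line 7, wild-type line 3 or wild-type line 3.2 no member passed over all genes, and 17 to 22 were higher at an unadjusted p under 0.05.

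**Figure D1:**
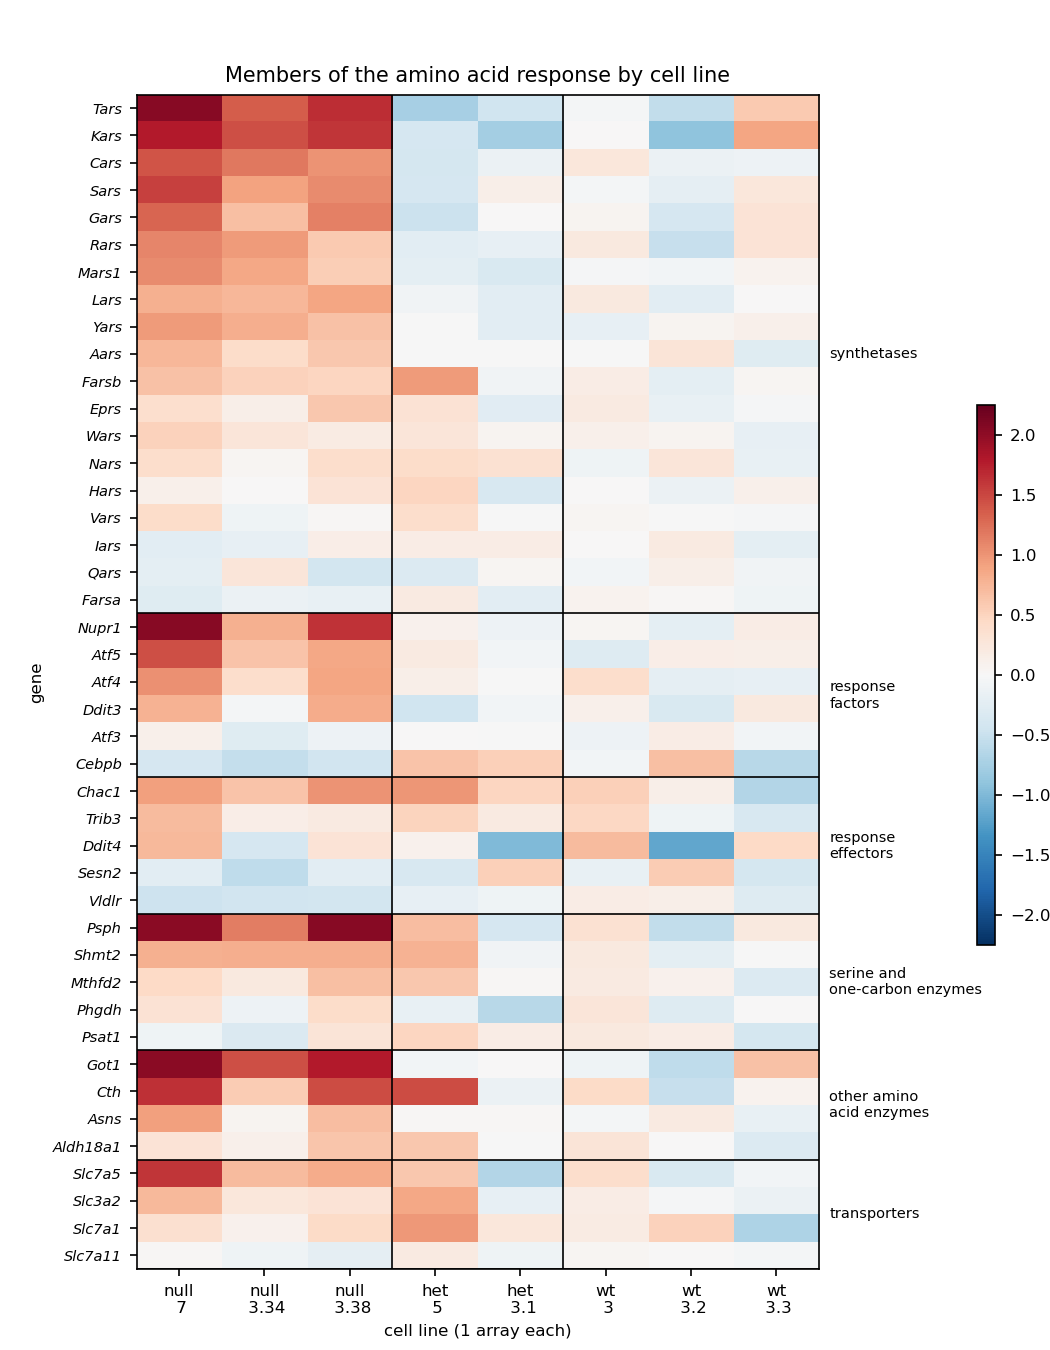
Rows are the 43 measured members grouped by role, columns the 8 lines, and colour is the log2 value minus the mean of the 3 wild-type lines. The 3 null columns are red from Tars down to Farsb among the synthetases and for Nupr1, Atf5, Psph, Shmt2, Got1 and Slc7a5, and blue for Cebpb, Sesn2 and Vldlr.

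Of the 19 measured synthetase genes 6 rose, none fell and 13 did not pass the test, and 12 were higher at an unadjusted p under 0.05. Tars, which charges threonine tRNA, had log2 values of 9.13, 8.43 and 8.74 in null lines 7, 3.34 and 3.38, with heterozygous lines 5 and 3.1 at 6.32 and 6.63, against 7.03, 6.52 and 7.67 in wild-type lines 3, 3.2 and 3.3. Every null line was above every other line, and Tars rose by 1.69 on the log2 scale (SE 0.29, adjusted p = 0.0452 from limma), 3.23-fold. Cars, for cysteine, had 8.04, 7.80 and 7.63 in the null lines, 6.22 and 6.48 in the heterozygous lines and 6.87, 6.49 and 6.50 in the wild-type lines. The groups did not overlap, and Cars had the smallest p of all members with a log2 fold change of 1.20 (SE 0.16, adjusted p = 0.0301 from limma).

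Sars, the serine enzyme, had 10.44, 9.80 and 9.97 in null lines, 8.52 and 9.03 in heterozygous lines and 8.86, 8.70 and 9.15 in wild-type lines (log2 fold change 1.17, SE 0.21, adjusted p = 0.0467). Its second probe set gave 1.03 (SE 0.17), so both read about the same difference. Lars, for leucine and a member of the complex that also serves as a leucine sensor, had 9.50, 9.45 and 9.59 in null lines, 8.62 and 8.47 in heterozygous lines and 8.93, 8.46 and 8.71 in wild-type lines (0.82, SE 0.13, adjusted p = 0.0407). Mars1, for methionine, had 9.06, 8.86 and 8.55 in null lines, 7.77 and 7.65 in heterozygous lines and 7.97, 7.94 and 8.08 in wild-type lines (0.82, SE 0.14, adjusted p = 0.0452). For all of these the lowest null line stood above the highest of the 5 other lines. Yars, for tyrosine, had 7.57, 7.43 and 7.28 in null lines, 6.60 and 6.38 in heterozygous lines and 6.42, 6.68 and 6.73 in wild-type lines. It was called present in the 3 null lines and in none of the others, so that its change is a bound, at least 1.76-fold higher in null than in wild-type ESCs (adjusted p = 0.0407 from limma).

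Kars, Gars and Rars kept all null lines above all other lines without passing the test. Kars, for lysine, had 8.89, 8.57 and 8.72 in null lines, 6.73 and 6.34 in heterozygous lines and 7.12, 6.20 and 8.00 in wild-type lines, and the null lines were close together while the wild-type lines were far apart (log2 fold change 1.62, SE 0.38, adjusted p = 0.0825 from limma). Gars, for glycine, had 11.09, 10.47 and 10.92 in null lines, 9.31 and 9.81 in heterozygous lines and 9.86, 9.42 and 10.10 in wild-type lines (1.04, SE 0.23, adjusted p = 0.0724). Rars, for arginine, had 9.19, 9.07 and 8.68 in null lines, 7.86 and 7.92 in heterozygous lines and 8.32, 7.58 and 8.41 in wild-type lines (0.88, SE 0.23, adjusted p = 0.1). The other 10 synthetase genes had log2 fold changes between −0.19 (Farsa, on a probe set called present in no line) and 0.59 (Aars). Of these 10, Aars alone also kept all null lines above all other lines, without passing the test. Grouped by their place in the cell, a split made after the values were seen, 2 of the 7 members of the multisynthetase complex rose (median log2 fold change 0.82) and 4 of the 12 others (median 0.57). Within the complex, Kars, Rars, Mars1 and Lars were higher by 0.82 to 1.62, whereas Iars and Qars, for isoleucine and glutamine, had −0.09 and −0.12.

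**Figure D2:**
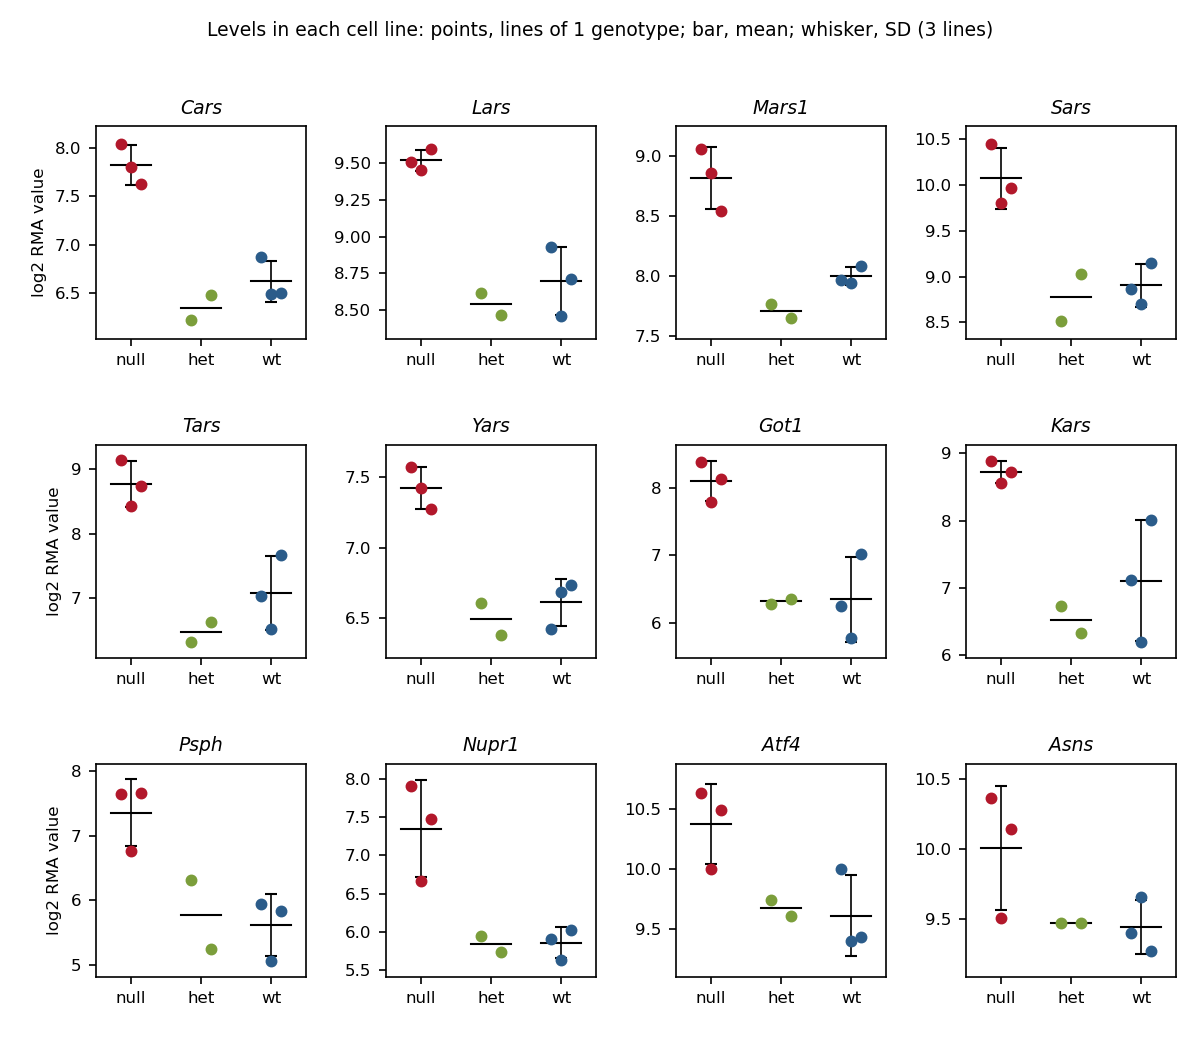
Each panel gives the log2 value of 1 gene on the vertical axis, with a point for each line, a bar at the mean of the genotype and, for 3 lines, a whisker of 1 SD. For Cars, Lars, Mars1, Sars, Tars, Yars, Got1, Kars, Psph and Nupr1 the lowest null line lies above the highest heterozygous and wild-type line, while Atf4 and Asns overlap.

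Several synthetase genes that did not pass on the probe set used here, the one with the highest mean, had a second probe set with a larger difference. For Aars, the alanine enzyme, the brighter probe set gave a log2 fold change of 0.59 (SE 0.16, adjusted p = 0.107) and the dimmer one 2.27 (SE 0.29, adjusted p = 0.0339 over all probe sets). On the dimmer probe set Aars averaged a log2 value of 7.82 in null, 5.20 in heterozygous and 5.55 in wild-type lines. For Nars, the asparagine enzyme, the brighter gave 0.28 and the dimmer 1.35 (SE 0.16, adjusted p = 0.0281 over all probe sets). Dimmer probe sets of Hars (1.18 against 0.15), Qars (1.23 against −0.12), Farsb (1.00 against 0.56) and the one-carbon enzyme gene Mthfd2 (1.36 against 0.44) also showed larger changes than the brightest. For Farsa the probe set used was called present in no line, and a dimmer one was called present in the 3 null lines and in no other, which makes it at least 2.02-fold higher in null than in wild-type ESCs (adjusted p = 0.0468 by limma with every probe set tested). The reverse held for Asns, whose dimmer probe set gave −0.01 against 0.56. Of 49 further probe sets of 26 members, 26 were called present in every null or every wild-type line, and 22 of these had the sign of the probe set used. Of the members, 20.9% were read by a probe set with the suffix x_at, which marks probes that may bind other transcripts, against 4.08% of all genes. The 9 such members had a median log2 fold change of 0.35 and none passed, while the 27 on a plain probe set had 0.76 and 6 passed. With the mean of all its probe sets taken for each gene, 8 members passed, against 0.759% of all genes. Aars and Nars were among the 8, while Cars was not.

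**Figure D3:**
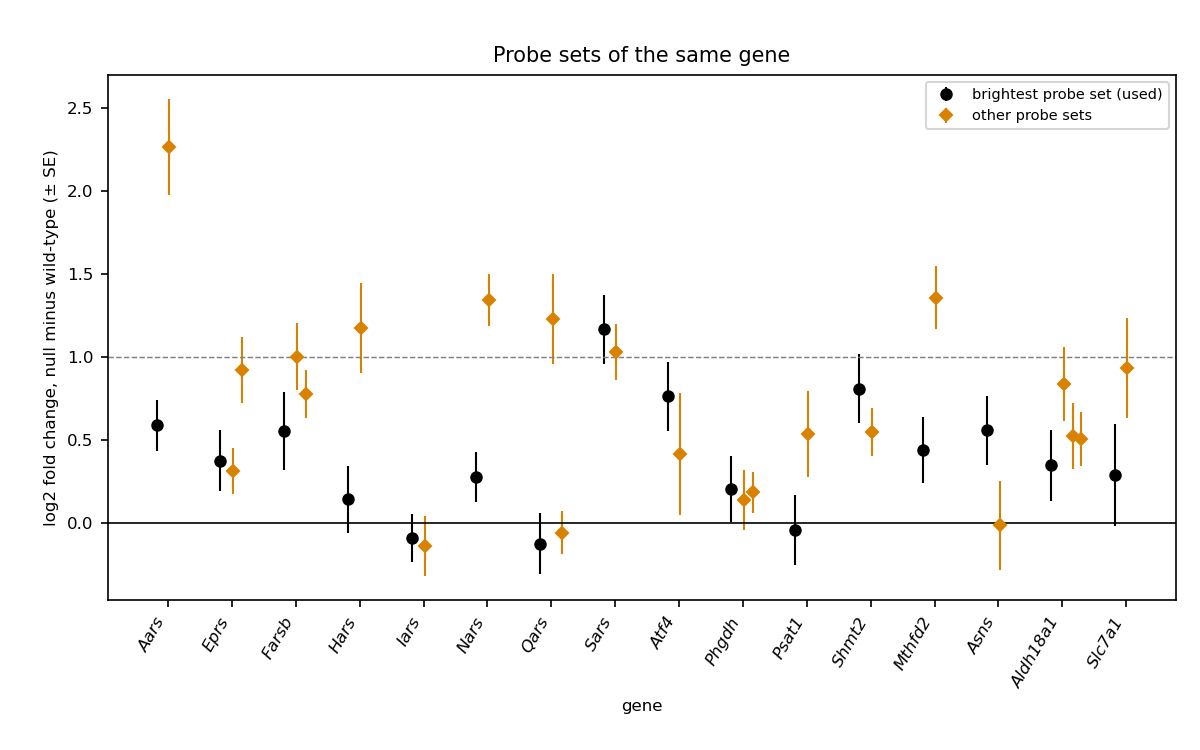
The vertical axis is the log2 fold change of null over wild-type ESCs with its SE, for the 16 members with more than 1 probe set called present in every null or every wild-type line. Black circles are the brightest probe sets, which were used, and orange diamonds the others. For Aars, Hars, Nars, Qars and Mthfd2 an orange diamond lies above the dashed line at 1 and the black circle below it.

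Of the 6 transcription factor genes none passed the test between null and wild-type ESCs, 3 were higher at an unadjusted p under 0.05 and none was lower. Nupr1, a small stress-induced chromatin protein and Atf4 target, came closest. It had log2 values of 7.90, 6.66 and 7.48 in null lines, 5.94 and 5.73 in heterozygous lines and 5.90, 5.63 and 6.02 in wild-type lines, with no overlap. On this probe set it was called present in 2 null lines and in no other line (log2 fold change 1.50, SE 0.28, adjusted p = 0.0521 from limma). The dimmer probe set of Nupr1 was called present in every line of all genotypes. It gave 1.95 (SE 0.36, adjusted p = 0.0598 over all probe sets, limma). Atf5, itself translated through the eIF2 pathway, had 6.77, 5.96 and 6.19 in null lines, 5.53 and 5.26 in heterozygous lines and 5.04, 5.47 and 5.46 in wild-type lines. It was called present in null lines alone, which makes it at least 1.98-fold higher (adjusted p = 0.0724 from limma). Atf4 mRNA averaged 10.38 ± 0.33 in null and 9.61 ± 0.34 in wild-type lines (SD, n = 3 each), and null line 3.34 overlapped wild-type line 3 (0.76, SE 0.21, adjusted p = 0.113 from limma). A dimmer probe set of Atf4, called present in every line, gave a smaller log2 fold change of 0.42 (SE 0.37). It averaged 9.39 in null, 9.59 in heterozygous and 8.97 in wild-type lines.

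The stress-induced factor genes Ddit3 (Chop) and Atf3 had log2 fold changes of 0.52 and −0.09, and Atf3 was called present in no null line. Cebpb, a partner of Atf4, went the other way from Nupr1 and Atf5. Its log2 value was 5.99, 5.83 and 5.94 in null lines, 7.01 and 6.91 in heterozygous lines and 6.32, 7.06 and 5.74 in wild-type lines. All null lines were below both heterozygous lines and within the range of the wild-type lines. The log2 difference was −1.04 between null and heterozygous lines (SE 0.31, adjusted p = 0.177) and −0.45 between null and wild-type lines (adjusted p = 0.506 from limma).

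The 5 effector genes showed no call in any comparison. Chac1, which breaks down glutathione and is a classic Atf4 target, had log2 values of 7.21, 6.92 and 7.30 in null lines, 7.28 and 6.77 in heterozygous lines and 6.81, 6.41 and 5.62 in wild-type lines. Heterozygous line 5 lay among the null lines and line 3.1 below wild-type line 3, and all wild-type lines were below all null lines (null minus wild-type 0.86, SE 0.29, adjusted p = 0.176 from limma). Trib3, a pseudokinase that damps Atf4, had a log2 fold change of 0.35, and its dimmer probe set 0.73 (SE 0.16, adjusted p = 0.0841 over all probe sets). Ddit4 (Redd1) and Sesn2, which restrain the growth kinase mTORC1, had 0.22 and −0.35, and for all of these the null and wild-type lines overlapped. Vldlr, a lipoprotein receptor gene induced by Atf4, had all null lines below all others, as 5.67% of all genes did. Its log2 value was 4.98, 5.03 and 5.05 in null lines, 5.28 and 5.36 in heterozygous lines and 5.62, 5.58 and 5.16 in wild-type lines (−0.44, SE 0.14, adjusted p = 0.152 from limma).

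Among the enzymes of serine and one-carbon metabolism, Psph, which makes serine in the last step of the pathway, differed most. Its log2 value was 7.65, 6.76 and 7.67 in null lines, 6.31 and 5.24 in heterozygous lines and 5.95, 5.06 and 5.83 in wild-type lines. No null line overlapped another line, and the log2 fold change was 1.75 (SE 0.36), 3.36-fold, with an adjusted p of 0.0638 from limma. Shmt2, the mitochondrial enzyme that passes the carbon of serine to folate, had 8.36, 8.39 and 8.39 in null lines, 8.35 and 7.49 in heterozygous lines and 7.79, 7.35 and 7.57 in wild-type lines (0.81, SE 0.21, adjusted p = 0.101). The null lines were nearly identical, and heterozygous line 5 was next to them. The preceding enzyme genes of serine synthesis, Phgdh and Psat1, had log2 fold changes of 0.21 and −0.04, and their null and wild-type lines overlapped. The second probe set of Psat1, called present in every line, gave 0.54 (SE 0.26).

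Got1, the cytosolic aspartate aminotransferase of the malate-aspartate shuttle, had the highest log2 fold change of all measured members, 1.75 (SE 0.29, adjusted p = 0.043 from limma), 3.37-fold. It had log2 values of 8.38, 7.79 and 8.13 in null lines, 6.28 and 6.35 in heterozygous lines and 6.26, 5.77 and 7.02 in wild-type lines, so that the heterozygous lines lay inside the wild-type range. Of the 7 genes listed for the shuttle, Got1 alone rose, and the mitochondrial Got2 had 0.44 (SE 0.12, adjusted p = 0.101). Cth, which makes cysteine, had 9.31, 8.22 and 9.13 in null lines, 9.13 and 7.54 in heterozygous lines and 8.10, 7.15 and 7.74 in wild-type lines (1.23, SE 0.45, adjusted p = 0.211). Heterozygous line 5 was level with null line 3.38, and the other heterozygous line lay among the wild-type ones. Asns, asparagine synthetase and the gene in which the response is best known, had 0.56 (SE 0.21, adjusted p = 0.23), and null line 3.34 at 9.51 was below wild-type line 3.2 at 9.66. Aldh18a1, an enzyme of proline synthesis, had 0.35 with overlapping lines. Its dimmer probe sets called present in every null line gave 0.84 (SE 0.22), 0.52 (SE 0.20) and 0.51 (SE 0.16). None of them had an adjusted p under 0.05 over all probe sets (limma).

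The transporter genes did not pass the test. Slc7a5, the light chain of the transporter of large neutral amino acids, had log2 values of 8.47, 7.56 and 7.69 in null lines, 7.47 and 6.20 in heterozygous lines and 7.25, 6.52 and 6.80 in wild-type lines (1.05, SE 0.36, adjusted p = 0.19 from limma). Slc3a2, its heavy chain partner, had 8.90, 8.41 and 8.47 in null lines, 9.04 and 7.98 in heterozygous lines and 8.34, 8.14 and 8.03 in wild-type lines (0.43, SE 0.26, adjusted p = 0.5). The null lines were above the wild-type lines for both genes, but heterozygous line 5 was highest of all for Slc3a2. Slc7a1, a carrier of cationic amino acids, had 0.29, and a dimmer probe set gave 0.94 (SE 0.30, adjusted p = 0.207 over all probe sets, limma). Slc7a11, the cystine carrier, was called present in no line of any genotype.

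**Figure D4:**
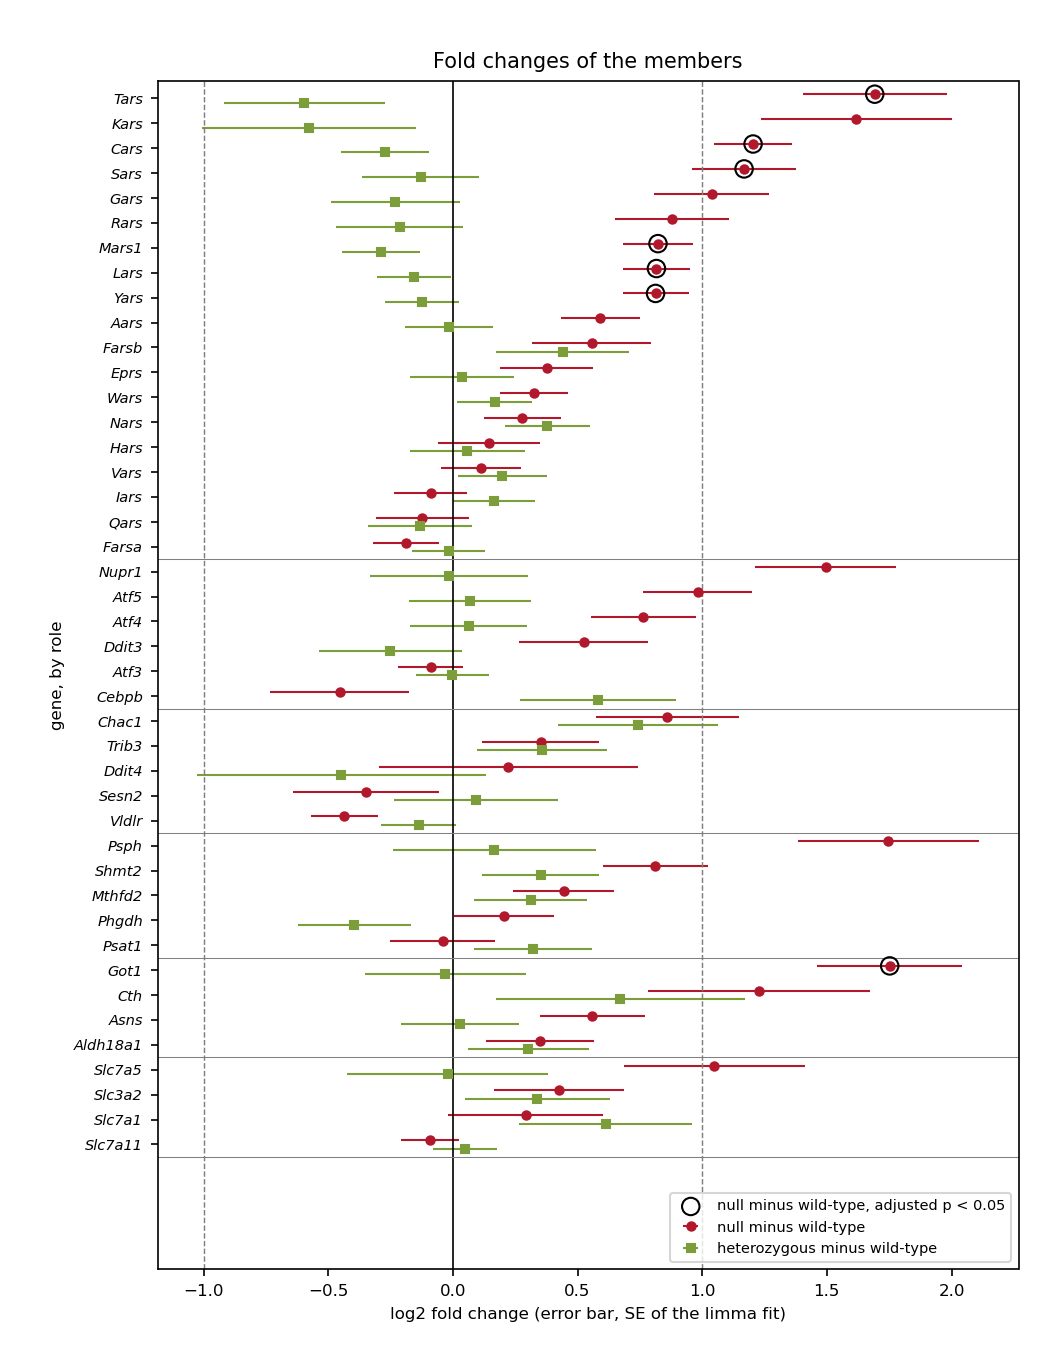
Log2 fold changes with the SE of the limma fit are on the horizontal axis, for each member a red circle for null over wild-type and a green square for heterozygous over wild-type, with dashed lines at 2-fold. Ringed circles mark the 7 members at an adjusted p under 0.05, and all green squares lie between −0.60 and 0.74.

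Between heterozygous and wild-type lines no member passed the test (limma), and 1, Chac1 (0.74, adjusted p = 0.997), was at an unadjusted p under 0.05, against 3.85% of all genes. None of the 43 was past 2-fold in either direction, against 0.335% of all genes, and the median log2 fold change was 0.04. Between null and heterozygous lines no gene on the array passed, the smallest adjusted p being 0.0529 for Cars (limma). At an unadjusted p under 0.05, 18 members were higher, against 7.65% of all genes, and 1 lower, against 1120 of all 18193 genes. By size alone, 11 members were past 2-fold higher, against 1.76% of all genes, and 1, Cebpb, past 2-fold lower, against 0.66%. The highest were Tars (2.29, SE 0.32, adjusted p = 0.0566) and Kars (2.20, SE 0.43, adjusted p = 0.0775). Both comparisons share the null lines or the wild-type lines with the first, and only 2 heterozygous lines entered them.

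The members varied within a genotype as well. Null line 7 held the highest value of its genotype for 26 of 43 members (60.5%), against 29.5% of all genes. Null line 3.34 held the lowest for 31 (72.1%), against 32.2% of all genes. Outside the synthetases line 3.34 was the lowest null line for 21 of 24 members, and for the synthetases for 10 of 19. The mean deviation of the 43 members from their means over all 8 lines was 0.52 in null line 7, 0.13 in line 3.34 and 0.38 in line 3.38, with heterozygous lines 5 and 3.1 at −0.03 and −0.32, against −0.10, −0.33 and −0.26 in wild-type lines 3, 3.2 and 3.3. For the synthetases alone the null lines had 0.54, 0.32 and 0.38 and the 5 other lines −0.35 to −0.14, and for the 5 effectors the null lines had 0.25, −0.20 and 0.10 and wild-type line 3 had 0.26. Heterozygous line 5 was over 2-fold above heterozygous line 3.1 for 6 members and below it for none, against 1.92% of all genes that were above. The 6 were Cth (1.59), Slc7a5 (1.27), Ddit4 (1.09), Psph (1.07), Slc3a2 (1.06) and Farsb (1.03), of which Farsb is the only synthetase.

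The study describes null line 7 with wild-type line 3, and null line 3.38 with wild-type line 3.3, as derived from the same litters. In these 2 pairs, which have no test, 33 of 43 members (76.7%) were higher in the null line of both, and 4 were lower in both. Of all 18193 genes 28.1% were higher in both and 5791 were lower in both. Over 2-fold in both pairs were Cars, Tars, Nupr1, Psph, Cth and Got1, 6 of 43 members, against 0.456% of all genes. Kars was 1.77 higher on the log2 scale in the first pair and 0.72 in the second. These 2 pairs were then set as random blocks in limma, with every other line, whose litter is not given, a block of its own. In that fit 8 members passed between null and wild-type ESCs, the 7 above and Nupr1 (1.51, adjusted p = 0.0413). With the blocks 1.58% of all genes passed in either direction, against 1.13% without them.

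The genes around the response were read from lists written down beside the members. Between null and wild-type ESCs, 8.67% of all 18193 genes were higher and 1402 genes lower at an unadjusted p under 0.05 (limma). Of 15 measured eIF2 kinases and regulators none passed the test (limma) and 5 were higher at an unadjusted p under 0.05. The highest of them was Eif2b5, the catalytic subunit of the factor that recharges eIF2, with 1.48 (SE 0.40, adjusted p = 0.11). The smallest p were those of Eif2b1 (0.64, SE 0.13, adjusted p = 0.0565) and Ppp1r15b (0.83, SE 0.17, adjusted p = 0.0621, limma). Of the 15 genes, 4 had the lower mean in null ESCs. The kinase gene Eif2ak4 was called present in no line on the probe set used. Of 16 mitochondrial synthetase genes none passed, 4 were higher at an unadjusted p under 0.05 and the median was 0.21. Of the 3 scaffold genes of the multisynthetase complex none passed and 2 were higher at an unadjusted p under 0.05, Aimp1 with 1.07 (SE 0.29, adjusted p = 0.107) and Eef1e1 with 0.40. Of 19 further Atf4 target and amino acid genes 1 rose and 18 did not pass. At an unadjusted p under 0.05 (limma) 4 were higher and 2 lower, 8 of the 19 had the lower mean in null ESCs, and the median was 0.18. The 2 lower were Slc38a2 (−0.55), with all null lines below all other lines, and Slc7a6 (−0.56). The gene that rose was Pck2, which makes phosphoenolpyruvate in mitochondria. Its log2 value was 7.56, 6.87 and 6.18 in null lines, 5.33 and 5.45 in heterozygous lines and 5.24, 5.00 and 5.25 in wild-type lines, at least 3.26-fold higher in null ESCs since no wild-type line called it present (adjusted p = 0.0467 from limma). Of 10 genes of endoplasmic reticulum stress none passed, with 3 higher and 3 lower at an unadjusted p under 0.05 (median −0.06). Of 6 Nrf2 targets none passed, and 1, Nqo1 (0.77), was at an unadjusted p under 0.05.

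Set beside the response elements, the 13 measured members whose window held 1 had a median log2 fold change of 0.59 between null and wild-type ESCs, 3 of them rose and 6 kept all null lines above all other lines. The 21 measured members whose window held none had a median of 0.43, with 2 risen and 6 above all other lines. The 9 with no window in the table (Cars, Lars, Rars and Slc7a5 among them) had 0.82, 2 and 4. Of the genes with the element, Got1, Tars, Nupr1 and Gars were past 2-fold, while Iars, Atf3, Slc7a11 and Vldlr had log2 fold changes from −0.44 to −0.09.

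**Figure D5:**
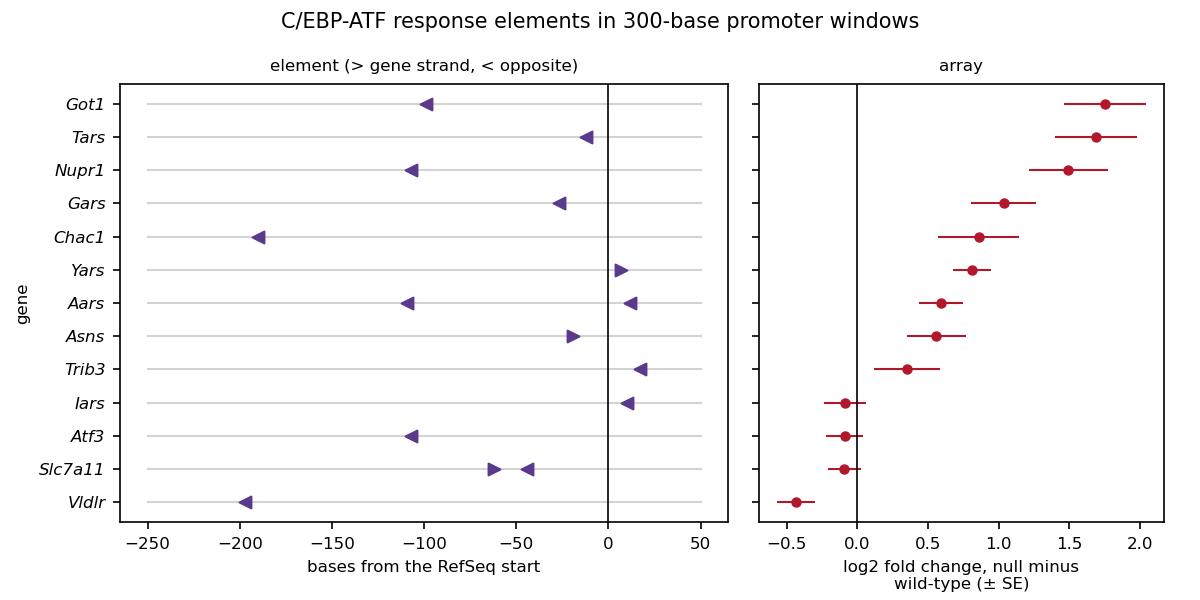
On the left, triangles mark the middle of each TGATGNAAN match in the 300-base window of 13 measured members, in bases from the RefSeq gene start (pointing right on the gene's strand, left on the opposite one), and on the right is the log2 fold change of null over wild-type ESCs with its SE. Genes are ordered by fold change, from Got1 at 1.75 to Vldlr at −0.44.

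A measure of RNA quality moved with genotype. The 3′ minus 5′ difference of the controls for Gapdh and beta-actin, which grows as RNA is less intact, averaged 3.30 ± 0.55 log2 units in null lines and 4.61 ± 0.34 in wild-type lines (SD, n = 3 each), and 4.64 in the 2 heterozygous lines. The difference was −1.31 (exact two-sided permutation test, p = 0.1, the smallest that 20 labellings allow). Null line 7 had the smallest value, 2.68. It was the highest null line for 26 of 43 members and the highest of all 8 lines for 20. With this measure as a covariate in limma, no gene on the array passed in any comparison, and between null and wild-type lines 2 members, both higher, had an unadjusted p under 0.05. Cars and Lars then had log2 fold changes of 1.13 and 0.81, against 1.20 and 0.82 without it, whereas Tars had 0.74 against 1.69, Got1 0.79 against 1.75, Sars 0.54 against 1.17, Mars1 0.44 against 0.82, Yars 0.45 against 0.81 and Kars 0.57 against 1.62, each with an adjusted p of 0.9999. Genotype and this measure cannot be told apart with these 8 arrays.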

How the data were processed

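Total RNA of each of the 8 ESC lines was hybridised to 1 Affymetrix mouse array. The authors ran RMA over the arrays and deposited log2 values per probe set. They also deposited linear signal intensities for each array, with detection calls and detection p-values. These intensities served as an alternative only, scaled to a trimmed mean of 500 with a floor of 32. RMA and limma are named in the submitters' processing notes without versions. After 64 controls were dropped from 45101 probe sets, 34945 named a single gene in the annotation of the platform, 932 several and 9160 none listed. Each of 18193 genes was read from its probe set with the highest mean, and levels of different probe sets were not compared.

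Genotypes were compared by limma 3.58.1 (R 4.3.3), with default lmFit and eBayes, all 8 arrays and 1 mean per genotype, and p-values were adjusted over all genes (Benjamini-Hochberg). Every adjusted p comes from such a fit, and SE is that of its coefficient. The thresholds were an adjusted p under 0.05 and a log2 fold change beyond 1, and the fit was tested on simulated data. Where no line of the lower genotype called a gene present on any probe set, its fold is a bound, computed with each dim array at the lowest value it called present if that exceeds the gene's own. Line values are given for members past either threshold in any comparison and for the 2 with the largest change in each role. Promoters are RefSeq sequences of build GRCm38.p6. The members were listed by gene name, and this list and the others were drawn up with earlier results of these data known. Lines of a genotype are separate derivations, and their number limits the precision. Summaries used Python 3.11.15.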

Additional observations from a re-analysis of the deposited data

How the results depend on the processing

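Against the 7 members that passed between null and wild-type ESCs, 11 passed among genes called present in every line of a genotype, 3 with only the 2 genotypes in the fit, and 0 from the signal values, with the 3′ minus 5′ covariate or without the 2 arrays with the lowest share called present (heterozygous line 3.1 and wild-type line 3.2), where 16, 2 and 23 members were higher at an unadjusted p under 0.05 (limma). With single lines left out the number was 0 to 5, and it was 0 without null line 7, wild-type line 3 or wild-type line 3.2, where 2 to 4 genes passed on the whole array. It was 3 without null line 3.38 (1.0% of all genes passed), 4 without null line 3.34 (0.973%) and 5 without wild-type line 3.3 (1.14%). With only the 2 genotypes in the fit 0.819% of all genes passed, and 1.13% with all 8 arrays. Of the named calls, Cars passed with 5 of the 8 lines left out in turn, Yars with 4, Tars and Got1 with 2, Mars1 with 1, and Lars and Sars with none, while their log2 fold changes stayed between 0.70 and 2.09. Past 2-fold, 10 members became 17 with every probe set tested (1.88% of all probe sets) and 3 with the covariate (1.68% of all genes). With single lines left out there were 7 to 12 (1.81% to 3.39% of all genes). Between null and heterozygous lines the 0 calls became 2 with the mean of all probe sets (0.11% of all genes passed). They became 9 among genes called present (2.27% of such genes). With 2 genotypes in the fit there were 6, Cebpb lower (0.528%), and with an intensity trend in eBayes 2 (0.198%). With single null or wild-type lines left out there were 0 to 11. The 11, Cebpb lower, came without wild-type line 3.2 (1.9%), and 5 passed without wild-type line 3.3 (0.665%). The 12 past 2-fold became 19 with every probe set (2.02% of all probe sets) and 3 with the covariate (2.14% of all genes). Between heterozygous and wild-type lines the 0 past 2-fold became 0 to 2 with single null or wild-type lines left out (0.319% to 0.632% of all genes). Leaving out the 2 arrays keeps 1 heterozygous line. By size alone, Chac1, Cth and Slc7a1 were then past 2-fold higher and Tars past 2-fold lower, as were 1.36% of all genes in either direction. The members' median log2 fold change, 0.52, became 0.23 with the covariate. Over 17 alternatives, all but the test of every probe set, 13 of the 43 members changed sign between null and wild-type ESCs at least once, none of them among the 7 that passed. The covariate turned 9 (among them Slc3a2 to −0.12, Ddit4 to −1.09 and Ddit3 to −0.02), the mean of all probe sets turned Farsa, Qars and Psat1 to 0.23, 0.25 and 0.25, and the signal values turned Trib3 to −0.80. The 3′ minus 5′ difference between null and wild-type lines, left out line by line as an alternative added after seeing the data, ranged from −1.52 to −1.004. The labels give no number that pairs the lines. Lines of a shared litter were set as a random replicate block, an alternative added after seeing the data, with every other line a block of its own. The correlation within a litter, read from 2 pairs, was 0.0944. Between null and wild-type lines 8 members passed (limma), against 1.58% of all genes, and none in the other comparisons. At an unadjusted p under 0.05 (limma) 1 member was higher between heterozygous and wild-type lines and 18 between null and heterozygous lines. The cause of these changes was not tested, other than fewer arrays or genes in the fit.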
